A study of Mus musculus with 36 samples.

Results

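Arntl, Clock and Npas2 encode the activators of the circadian clock. The 3 genes were taken by symbol from the 12393 genes that could be named on 36 Affymetrix arrays of the mouse left ventricle, and they were read by 5 probe sets. Arntl had the single probe set 1425099_a_at, Clock had 1418659_at and 1418660_at, and Npas2 had 1421036_at and 1421037_at. In GRCm38.p6 Arntl (Entrez 11865) lies at chr7:113178471-113314126 on the + strand, Clock (Entrez 12753) at chr5:76209868-76305603 on the - strand and Npas2 (Entrez 18143) at chr1:39193702-39363240 on the + strand. No member was lost to a filter, because none was applied. The arrays came from mice given transverse aortic constriction (TAC), which narrows the aorta and puts the left ventricle under pressure load, and from mice given a SHAM operation. Hearts were taken 8 weeks after surgery at ZT03, ZT07, ZT11, ZT15, ZT19 and ZT23, where ZT is zeitgeber time in hours, conventionally counted from lights on. Each of the 12 groups held 3 mice, called biological replicates in the labels, so that each surgery had 18 arrays. No other treatment, and neither strain, sex, age nor light schedule, is given in the labels used here.

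The deposited values were on a log scale, taken here as log2, and every probe set had a median of 0 over the TAC arrays and separately over the SHAM arrays. A level in TAC could therefore not be compared with a level in SHAM, and levels could not be compared between genes. The same centring meant that the label of left ventricle could not be set against the levels of cardiomyocyte or atrial markers. The course over the day within a surgery, and the difference between the courses, could be compared. Array medians lay between -0.036 and 0.027. Airway markers had a mean above 1 on 2 TAC arrays (ZT03 replicate 3 and ZT23 replicate 1) and thymocyte markers on 1 SHAM array (ZT11 replicate 3), and results are given without these 3 arrays where they touch a call.

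The protein made from Arntl, known as BMAL1, pairs with CLOCK or with its close relative NPAS2, and the pair switches on genes through E-box sequences. Among these genes are the Per and Cry repressors, which then block the pair, and Nr1d1 and Nr1d2, whose REV-ERB proteins repress Arntl, Clock and Npas2 through response elements that they share with the activating ROR receptors. In mouse tissues this loop leaves Arntl mRNA high around the end of the night and the start of the day and low around dusk. In heart muscle cells the activators are known to drive rhythms of metabolic and ion channel genes.

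Promoter sequences are shown because the 3 members moved together over the day, and because a REV-ERB and ROR response element has been described in the Arntl promoter of mouse. RefSeq (GRCm38.p6) held promoter windows for all 3 members, each running from 250 bases before to 50 bases after a transcript start. The windows lie inside the annotated gene spans given above, and not at their first base. Capitals mark the nuclear receptor core AGGTCA (or its complement TGACCT) and the longer element AGTAGGTNA. The first is the more downstream of 2 Arntl windows (chr7:113207261-113207560, + strand), the second is the most downstream of 3 Clock windows (chr5:76303453-76303752, - strand), and the third is the only Npas2 window (chr1:39194022-39194321, + strand).
Arntl: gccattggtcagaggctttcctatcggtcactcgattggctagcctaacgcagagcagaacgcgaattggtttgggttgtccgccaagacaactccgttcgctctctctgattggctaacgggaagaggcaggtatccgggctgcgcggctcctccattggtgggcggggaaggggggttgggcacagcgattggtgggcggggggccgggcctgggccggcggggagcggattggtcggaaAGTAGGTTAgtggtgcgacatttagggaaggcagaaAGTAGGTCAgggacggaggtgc
Clock: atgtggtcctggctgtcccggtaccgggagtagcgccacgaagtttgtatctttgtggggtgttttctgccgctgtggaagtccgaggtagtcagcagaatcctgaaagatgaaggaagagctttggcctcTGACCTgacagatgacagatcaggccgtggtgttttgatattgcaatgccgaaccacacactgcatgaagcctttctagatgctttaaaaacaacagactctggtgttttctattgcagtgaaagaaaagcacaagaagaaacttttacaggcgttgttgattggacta
Npas2: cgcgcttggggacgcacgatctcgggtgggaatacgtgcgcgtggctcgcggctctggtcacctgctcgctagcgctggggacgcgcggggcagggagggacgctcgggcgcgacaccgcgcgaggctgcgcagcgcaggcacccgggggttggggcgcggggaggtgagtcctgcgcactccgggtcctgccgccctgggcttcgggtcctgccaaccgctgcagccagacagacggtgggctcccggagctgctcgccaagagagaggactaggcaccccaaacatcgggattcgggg
The Arntl window held AGTAGGTNA 2 times on the gene's strand, as AGTAGGTTA from position -8 and as AGTAGGTCA from position 29, counted from the start as position 1. The other Arntl window overlaps it and shares the AGTAGGTTA match. Both strands of all 32851 windows of the same length were searched, and 0.591% held this element, whose letters were chosen after the Arntl windows had been seen. The core AGGTCA, which the longer element contains when N is C, was found in 16.3% of windows. It occurred 1 time in the Clock window shown, on the opposite strand, and in neither of the other Clock windows nor in the Npas2 window. The Arntl and Clock windows shown are thus those with the most matches of their gene. Of all genes, 18.1% held the core in at least 1 window. The E-box CACGTG, present in 7.15% of windows, was in no window of the 3 members. These matches describe letters only, and which start is used in the left ventricle was not measured.

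A 24-h rhythm passed the test for all 3 members in TAC hearts and for all 3 in SHAM hearts, where 4.35% of all genes passed in TAC and 5.58% in SHAM. The test was limma's moderated F-test of a fitted cosine curve, with p-values adjusted by Benjamini-Hochberg over 12393 genes and a threshold of 0.05. Arntl had the largest amplitude of the 3 in each surgery, Clock came next and Npas2 had the smallest. Amplitudes run from the mean of the curve to its peak. The median amplitude over all genes was 0.047 in TAC and 0.048 in SHAM. In each surgery the group means of all 3 members were above 0 at ZT23 and ZT03 and below 0 at ZT07, ZT11 and ZT15. A limma test of any change over the 6 times, without an assumed curve, also called all 3 members in each surgery (TAC adjusted p = 1.30e-05 for Arntl, 0.0044 for Clock and 0.0262 for Npas2, against 1.01e-07, 1.88e-05 and 0.0088 in SHAM), where 5.26% of all genes passed in TAC and 3.37% in SHAM.

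**Figure D1:**
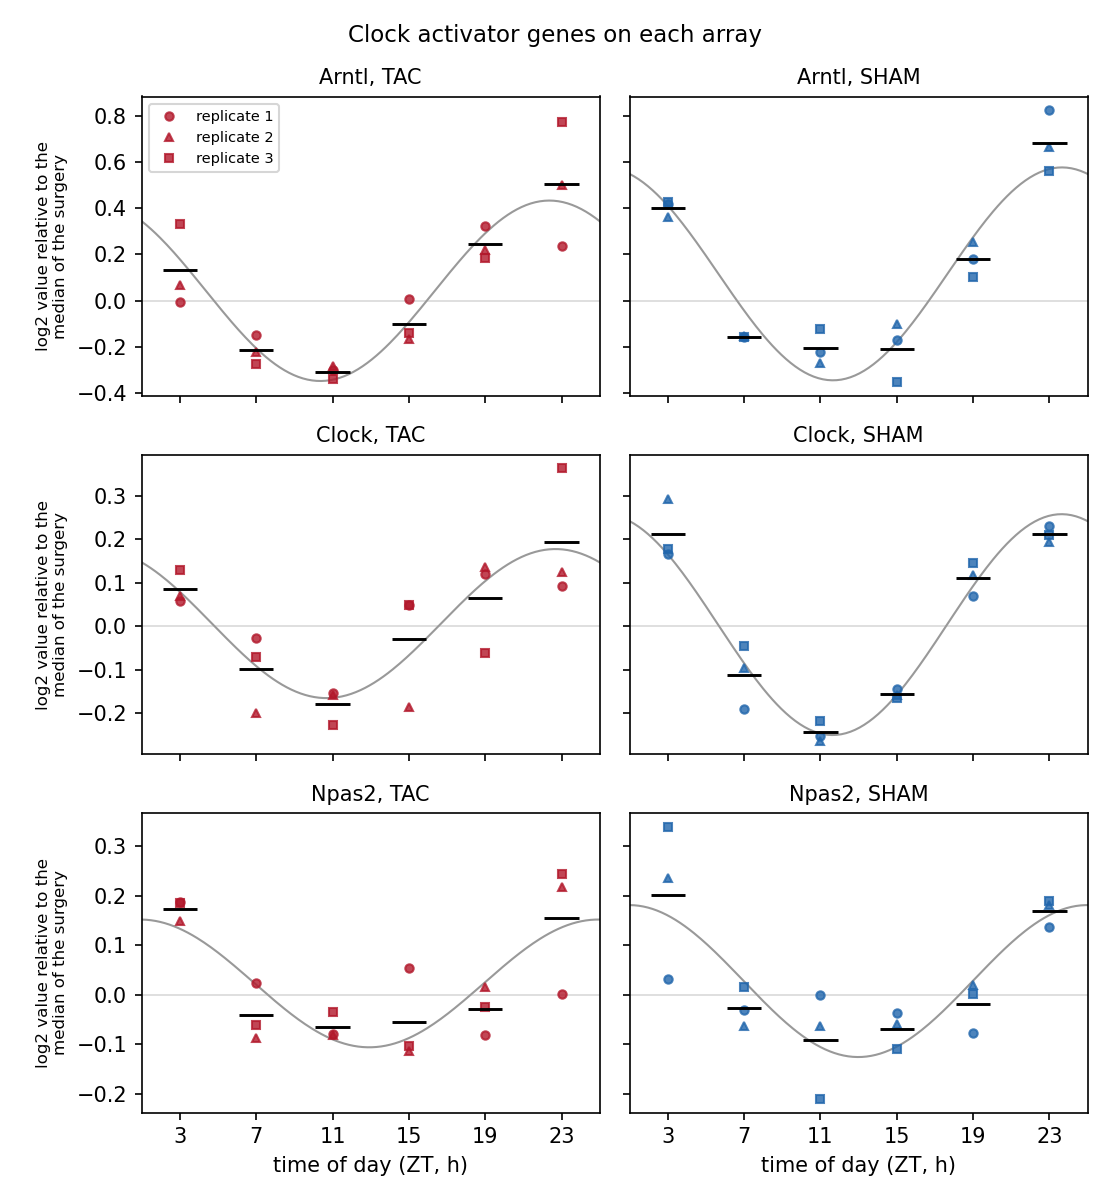
Values of Arntl, Clock and Npas2 on each array against time of day (ZT, h), in log2 relative to the median of the surgery, with TAC on the left and SHAM on the right. Points are mice, black bars are means of 3 mice and grey lines are the fitted 24-h curves. Arntl reached a mean of 0.50 at TAC ZT23 and 0.68 at SHAM ZT23, and the 3 TAC mice at ZT23 lay further apart than the 3 SHAM mice.

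Arntl, the partner that both CLOCK and NPAS2 require, was described first. In TAC hearts its log2 values were -0.0084, 0.067 and 0.33 at ZT03, then -0.15, -0.22 and -0.27 at ZT07, and -0.30, -0.29 and -0.34 at ZT11. They were 0.0084, -0.17 and -0.14 at ZT15, then 0.32, 0.22 and 0.19 at ZT19, and 0.23, 0.50 and 0.77 at ZT23. Arntl was thus lowest in all 3 TAC mice of ZT11 and highest, with a wide scatter, at ZT23.

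In SHAM hearts the log2 values of Arntl were 0.42, 0.36 and 0.43 at ZT03, then -0.16, -0.15 and -0.16 at ZT07, and -0.22, -0.27 and -0.12 at ZT11. They were -0.17, -0.10 and -0.35 at ZT15, then 0.18, 0.26 and 0.10 at ZT19, and 0.82, 0.66 and 0.56 at ZT23. The SHAM mice of ZT23 lay above the mice of every other SHAM time, and those of ZT07, ZT11 and ZT15 overlapped each other.

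The fitted amplitude of Arntl was 0.39 ± 0.04 in TAC (SE, n = 18, limma adjusted p = 1.12e-06) and 0.46 ± 0.04 in SHAM (SE, n = 18, adjusted p = 1.88e-08). With log2 values this is a peak-to-trough fold of 1.72 in TAC and 1.89 in SHAM. The 24-h curve took up 83.0% of the variance between arrays in TAC and 88.2% in SHAM. By amplitude Arntl ranked 51st of 12393 genes in TAC and 50th in SHAM. The call held in each surgery under all 51 alternatives. Some of these could not change the amplitude, such as refitting its only probe set or leaving out an array of the other surgery.

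The 2 sampled times that lay closest to the peak and the trough of Arntl were set against each other directly. They were chosen with earlier results of these data known. The p-values of this contrast are therefore no independent support for the rhythm of Arntl. Arntl was higher at ZT23 than at ZT11 by 0.81 ± 0.09 in TAC (SE, limma adjusted p = 9.59e-06) and by 0.89 ± 0.09 in SHAM (adjusted p = 5.27e-07). Of all genes, 1.05% were called higher at ZT23 in TAC and 0.282% in SHAM. The TAC difference was 0.68 without TAC ZT23 replicate 3, the mouse with the highest Arntl value of that surgery, and 0.94 without the 3 arrays with airway or thymocyte markers.

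Clock encodes the DNA-binding partner of BMAL1 in most tissues. In TAC hearts its log2 values were 0.058, 0.071 and 0.13 at ZT03, then -0.026, -0.20 and -0.070 at ZT07, and -0.15, -0.16 and -0.23 at ZT11. They were 0.049, -0.18 and 0.050 at ZT15, then 0.12, 0.14 and -0.061 at ZT19, and 0.092, 0.12 and 0.36 at ZT23. The TAC mice of ZT15 and of ZT19 lay on either side of 0, and those of ZT19 overlapped with those of ZT23.

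In SHAM hearts the log2 values of Clock were 0.17, 0.29 and 0.18 at ZT03, then -0.19, -0.096 and -0.046 at ZT07, and -0.25, -0.26 and -0.22 at ZT11. They were -0.14, -0.16 and -0.17 at ZT15, then 0.071, 0.12 and 0.15 at ZT19, and 0.23, 0.19 and 0.21 at ZT23. The SHAM mice of a group were close together, with all 9 mice of ZT19, ZT23 and ZT03 above all 9 mice of ZT07, ZT11 and ZT15.

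The amplitude of Clock was 0.17 ± 0.03 in TAC (SE, n = 18, limma adjusted p = 2.29e-04) and 0.25 ± 0.03 in SHAM (SE, n = 18, adjusted p = 1.16e-07), or a peak-to-trough fold of 1.27 in TAC and 1.42 in SHAM. The curve took up 65.7% of the variance in TAC and 93.5% in SHAM. Clock was higher at ZT23 than at ZT11 by 0.37 ± 0.07 in TAC (SE, limma adjusted p = 0.0021) and by 0.46 ± 0.07 in SHAM (adjusted p = 1.40e-04). With the spread estimated from the 18 TAC arrays alone, and not from all 36, the limma adjusted p was 0.0203 for the TAC rhythm and 0.0603 for the TAC difference of ZT23 and ZT11. Without TAC ZT23 replicate 3 that difference was 0.29.

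Npas2 encodes the paralog that can take the place of CLOCK beside BMAL1. In TAC hearts its log2 values were 0.19, 0.15 and 0.18 at ZT03, then 0.024, -0.088 and -0.062 at ZT07, and -0.079, -0.082 and -0.034 at ZT11. They were 0.054, -0.11 and -0.10 at ZT15, then -0.081, 0.017 and -0.025 at ZT19, and 0.0018, 0.22 and 0.24 at ZT23. From ZT07 to ZT19 the TAC groups overlapped, and the mouse at 0.0018 was the only 1 of ZT23 below the mice of ZT03.

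In SHAM hearts the log2 values of Npas2 were 0.032, 0.24 and 0.34 at ZT03, then -0.031, -0.063 and 0.015 at ZT07, and -0.0013, -0.063 and -0.21 at ZT11. They were -0.036, -0.060 and -0.11 at ZT15, then -0.077, 0.019 and 0.00094 at ZT19, and 0.14, 0.18 and 0.19 at ZT23. All SHAM mice of ZT23 and ZT03 lay above all SHAM mice of the other 4 times, although the mice of ZT03 were scattered.

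The amplitude of Npas2 was 0.13 ± 0.03 in TAC (SE, n = 18, limma adjusted p = 0.0124) and 0.15 ± 0.03 in SHAM (SE, n = 18, adjusted p = 0.0014), or a peak-to-trough fold of 1.20 in TAC and 1.24 in SHAM. With the 18 TAC arrays alone the limma adjusted p of the TAC rhythm was 0.0539. Npas2 was the member whose difference between ZT23 and ZT11 did not pass: it was 0.22 ± 0.07 in TAC (SE, limma adjusted p = 0.0892) and 0.26 ± 0.07 in SHAM (adjusted p = 0.0522). Without TAC ZT23 replicate 1, the mouse at 0.0018, the TAC difference was 0.30 (limma adjusted p = 0.0184). For each of the 3 members and in each surgery, the 3 values of ZT23 lay above the 3 of ZT11, as they did for 7.19% of all genes in TAC and 7.25% in SHAM.

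The probe sets of a gene differed in how clearly they showed the rhythm. For Clock, 1418659_at had amplitudes of 0.24 ± 0.03 in TAC and 0.29 ± 0.03 in SHAM and passed in each surgery in a limma fit across 20380 named probe sets, of which 3.87% passed in TAC and 4.44% in SHAM. The other Clock probe set, 1418660_at, passed in SHAM (amplitude 0.22 ± 0.04, limma adjusted p = 6.54e-04) and had an amplitude of 0.11 ± 0.04 in TAC (adjusted p = 0.192). For Npas2, 1421037_at had amplitudes of 0.17 ± 0.03 in TAC and 0.18 ± 0.03 in SHAM and passed in each surgery. The probe set 1421036_at had amplitudes of 0.085 ± 0.032 in TAC (limma adjusted p = 0.243) and 0.12 ± 0.03 in SHAM (adjusted p = 0.0469). So the TAC rhythms of Clock and of Npas2 were each called by 1 of 2 probe sets and the SHAM rhythms by both, and the difference between the probe sets was not tested. Over the 36 arrays the Pearson correlation was 0.66 between the Clock probe sets and 0.73 between those of Npas2, as a description of values that share the same libraries.

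**Figure D2:**
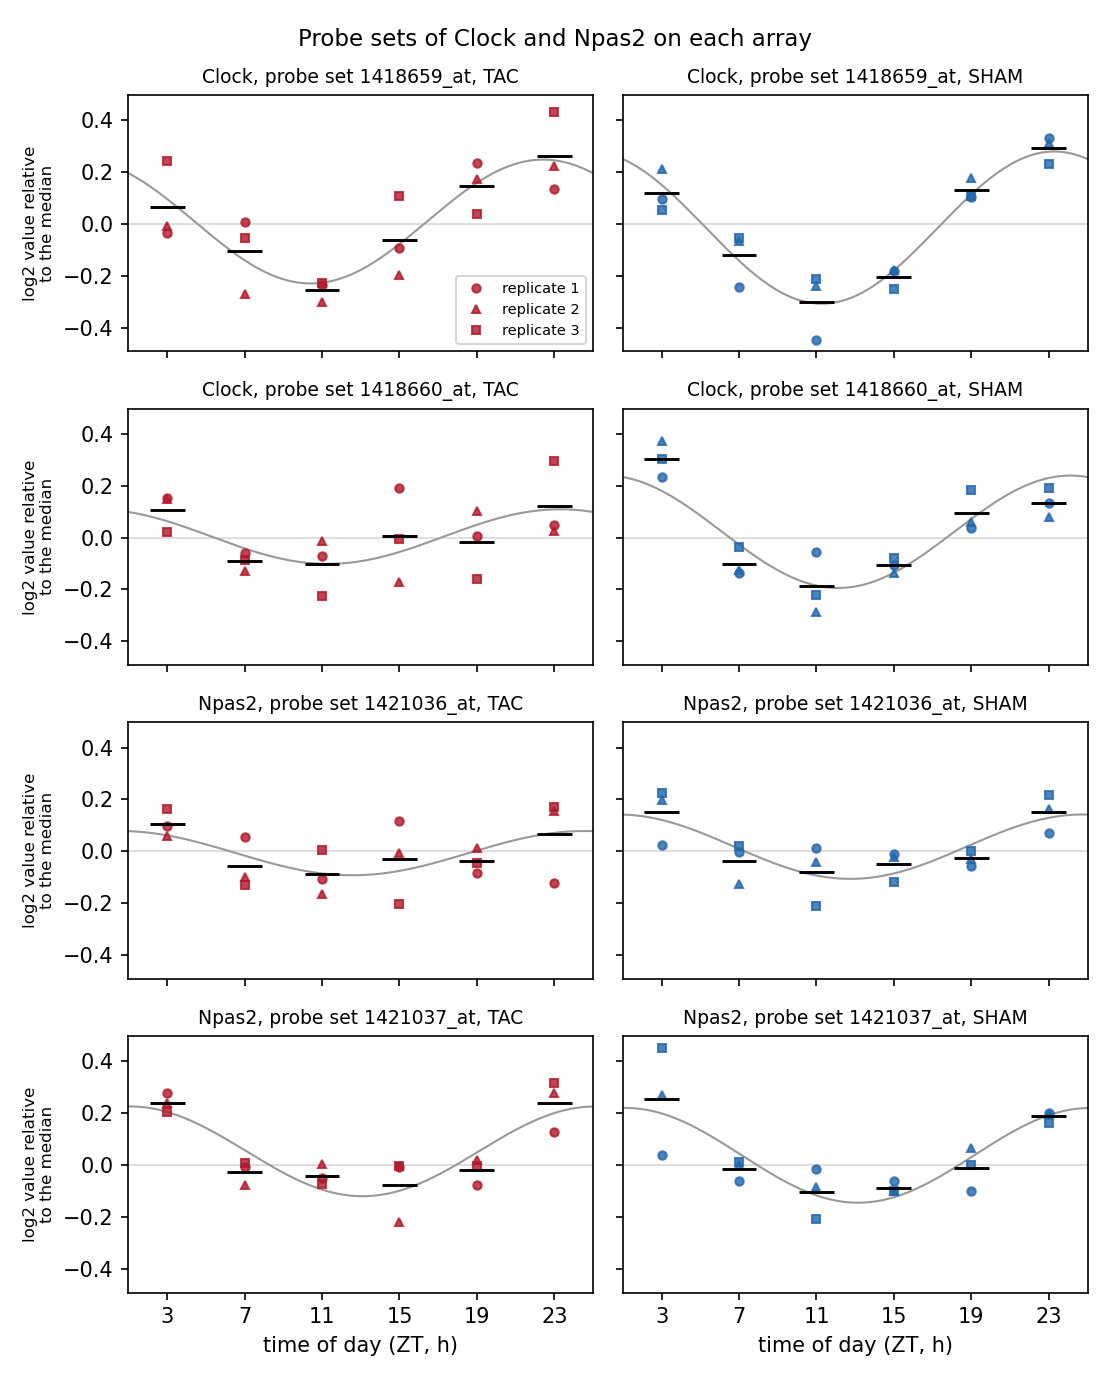
Values of the 2 Clock and 2 Npas2 probe sets on each array against time of day (ZT, h), in log2 relative to the median of the surgery, with TAC on the left and SHAM on the right. Points are mice, black bars are means of 3 mice and grey lines are fitted 24-h curves. Probe set 1418660_at has an amplitude of 0.11 in TAC and 0.22 in SHAM, and 1421037_at one of 0.17 in TAC and 0.18 in SHAM.

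The steps between neighbouring times differed between the members. Arntl in TAC hearts was higher at ZT15 than at ZT11 by 0.21 ± 0.09 (SE of the group difference), while in SHAM hearts that step was -0.0025 ± 0.0932. From ZT19 to ZT23 the Arntl step was 0.26 ± 0.09 in TAC and 0.50 ± 0.09 in SHAM, and from ZT03 to ZT07 it was -0.35 ± 0.09 in TAC and -0.56 ± 0.09 in SHAM. The largest upward step of Arntl thus lay between ZT15 and ZT19 in TAC (0.34 ± 0.09) and between ZT19 and ZT23 in SHAM.

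Clock had its largest upward step between ZT11 and ZT15 in TAC (0.15 ± 0.07) and between ZT15 and ZT19 in SHAM (0.27 ± 0.07). Npas2 moved in 2 steps in each surgery. From ZT19 to ZT23 it stepped by 0.18 ± 0.07 in TAC and 0.19 ± 0.07 in SHAM, and from ZT03 to ZT07 by -0.21 ± 0.07 in TAC and -0.23 ± 0.07 in SHAM. Its other 4 steps were between -0.023 and 0.024 in TAC and between -0.066 and 0.049 in SHAM. The single steps were not tested and the order of these sizes is a description.

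**Figure D3:**
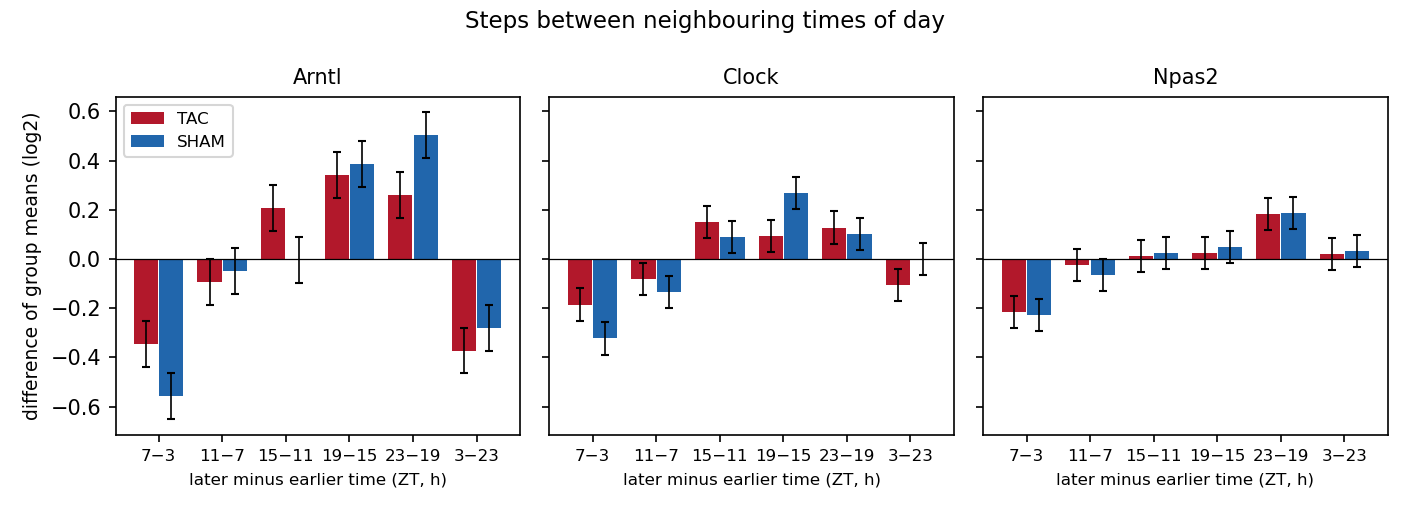
Difference of group means (log2) between each time and the one before it, for Arntl, Clock and Npas2, with TAC bars left of SHAM bars. Error bars are SEs from the limma model of 12 group means. For Npas2 the steps from ZT19 to ZT23 (0.18 in TAC, 0.19 in SHAM) and from ZT03 to ZT07 (-0.21 in TAC, -0.23 in SHAM) stand out from the other 4 in each surgery.

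The fitted peaks of Arntl and Clock lay at nearly the same time of day. That of the Npas2 gene mean came later, by a margin that depended on the probe set. In TAC the peak times were ZT22.4 ± 0.4 for Arntl, ZT22.7 ± 0.6 for Clock and ZT0.92 ± 0.82 for Npas2 (SE in h, n = 18). In SHAM they were ZT23.7 ± 0.4 for Arntl, ZT23.6 ± 0.4 for Clock and ZT0.98 ± 0.69 for Npas2. The Clock probe set 1418660_at by itself peaked at ZT23.3 ± 1.3 in TAC and ZT0.12 ± 0.65 in SHAM. For 1418659_at the peaks were ZT22.4 ± 0.5 and ZT23.3 ± 0.4. Those of Npas2 were ZT0.56 ± 1.44 and ZT0.75 ± 0.99 for 1421036_at, and ZT1.10 ± 0.70 and ZT1.14 ± 0.66 for 1421037_at. Between 1418660_at and 1421036_at the ranges of 1 SE overlapped in each surgery. Compared on the same arrays, Arntl minus Clock was -0.33 ± 0.58 h in TAC and 0.028 ± 0.424 h in SHAM, less than its SE in each surgery. Arntl minus Npas2 was -2.56 ± 0.82 h in TAC and -1.32 ± 0.67 h in SHAM, and Clock minus Npas2 was -2.24 ± 0.84 h in TAC and -1.35 ± 0.66 h in SHAM. The amplitude of Arntl was 2.28 times that of Clock in TAC and 1.81 times in SHAM, and 3.03 times that of Npas2 in TAC and 3.00 times in SHAM. These distances and ratios are descriptions without a test, and a ratio of amplitudes can also reflect how each probe set responds. In Pearson correlations over the 36 arrays, Arntl and Clock stood at 0.89, Clock and Npas2 at 0.74, and Arntl and Npas2 at 0.72, values that share their libraries and times.

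The design asks whether pressure load changes the daily course, and none of the 3 members passed any of the 3 tests of a difference between TAC and SHAM. For the difference of rhythm the limma adjusted p was 0.789 for Arntl, 0.789 for Clock and 0.971 for Npas2. The unadjusted limma p was 0.0404 for Arntl, 0.0404 for Clock and 0.824 for Npas2, and 6.27% of all genes were under 0.05. For Arntl and Clock this unadjusted value depended on the setting: it was 0.0069 and 0.0042 after quantile normalization and 0.0062 and 0.0058 without TAC ZT23 replicate 3, but 0.0682 and 0.153 with array weights. Without the 3 arrays with airway or thymocyte markers the unadjusted limma p was 0.0156 for Arntl and 0.0658 for Clock. For Clock the unadjusted limma p was 0.243 with probe set 1418659_at by itself and 0.0959 with 1418660_at by itself. The size of the Arntl rhythm difference was 0.16, and 0.28 after quantile normalization, which was run on the values already centred within surgery. At the adjusted threshold 0.0484% of genes passed. For the time course without an assumed curve the limma adjusted p was 0.929 for Arntl and 1 for Clock and for Npas2, where 0.0161% of genes passed. The unadjusted p of the time course was 0.0632 for Arntl, 0.143 for Clock and 0.991 for Npas2, with 5.57% of all genes under 0.05.

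The fitted peak of Arntl came earlier in TAC than in SHAM, with a TAC minus SHAM difference of -1.31 ± 0.55 h (SE, 95% interval from -2.42 to -0.19 h). For Clock the difference was -0.95 ± 0.70 h (95% interval from -2.37 to 0.46 h) and for Npas2 it was -0.066 ± 1.075 h (95% interval from -2.25 to 2.12 h). The intervals come from each gene alone, without adjustment over genes. The Npas2 interval holds the Arntl and Clock shifts, so that a like shift of Npas2 was not resolved at this number of arrays. The TAC amplitude was 0.848 of the SHAM amplitude for Arntl, 0.675 for Clock and 0.841 for Npas2. As TAC minus SHAM, the amplitude differed by -0.070 for Arntl (95% interval from -0.193 to 0.053), by -0.082 for Clock (from -0.157 to -0.0080) and by -0.024 for Npas2 (from -0.104 to 0.055). After quantile normalization between arrays these amplitude differences were -0.21 for Arntl and -0.13 for Clock, and without all arrays of replicate number 1 that of Arntl was 0.014. The Clock probe sets by themselves gave amplitude differences of -0.055 for 1418659_at (95% interval from -0.150 to 0.041) and -0.11 for 1418660_at (from -0.217 to -0.0062).

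The difference between ZT23 and ZT11, taken as TAC minus SHAM, was -0.078 ± 0.132 for Arntl (SE, 95% interval from -0.348 to 0.192), -0.083 ± 0.093 for Clock (from -0.272 to 0.106) and -0.041 ± 0.092 for Npas2 (from -0.230 to 0.148). None passed in limma (adjusted p = 0.92, 0.857 and 0.939), where 0.0161% of all genes did. The unadjusted values were 0.558, 0.377 and 0.658, with 6.88% of all genes under 0.05. These values moved both ways with the arrays and the scaling. Without TAC ZT23 replicate 1 they were 0.056 for Arntl, -0.033 for Clock and 0.035 for Npas2, and without TAC ZT23 replicate 3 they were -0.21, -0.17 and -0.086. After quantile normalization they were -0.39 for Arntl (unadjusted limma p of 0.04, adjusted 0.889), -0.19 for Clock and -0.11 for Npas2.

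The spread between mice of the same group was compared next. Pooled over the 6 times, the SD within a group was 0.14 in TAC and 0.089 in SHAM for Arntl, a ratio of 1.61. For Clock it was 0.10 in TAC and 0.046 in SHAM, a ratio of 2.23, and for Npas2 0.075 in TAC and 0.084 in SHAM, a ratio of 0.889. The median ratio over all genes was 1.23, and the spread itself was not tested. Time by time, the SD was larger in TAC at 5 of 6 times for Clock, but at 3 of 6 for Arntl and 3 of 6 for Npas2, beside a median of 4 of 6 over all genes. Without the ZT23 groups, a choice made after seeing the data, the ratio was 1.29 for Arntl, 1.83 for Clock and 0.617 for Npas2, beside a median of 1.21 over all genes. At TAC ZT23, where the scatter of Arntl was widest (SD 0.27, n = 3), replicate 3 had the highest value of the group for all 3 members and replicate 1 the lowest. Replicate 1 was also the array of that group with airway transcripts (mean of 7 airway markers 1.41, against -0.068 and -0.042 in replicates 2 and 3). The part of airway tissue in its low values was not tested.

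Most repressors of the activators were lower at ZT23 than at ZT11, while Arntl and Clock were higher. Of 8 listed Per, Cry and related repressor genes 7 were measured, of which 6 were rhythmic in TAC and 6 in SHAM by the limma test, and 4 were called lower at ZT23 than at ZT11 in TAC and 5 in SHAM, with none called higher. Lower calls made up 0.516% of all genes in TAC and 0.46% in SHAM. The median ZT23 minus ZT11 difference of the list was -0.33 in TAC and -0.42 in SHAM, beside -0.015 in TAC and 0.0072 in SHAM over all genes. Per3, a member of the Per family, peaked at ZT10.4 in TAC and ZT11.1 in SHAM, and Cry1, the repressor that acts late in the cycle, at ZT18.2 in TAC and ZT19.0 in SHAM. The Cry1 difference of ZT23 and ZT11 was 0.11 in TAC and 0.18 in SHAM and did not pass (limma adjusted p = 0.471 and 0.391). That of Bhlhe40, which competes with the activators for E-boxes, was 0.28 in TAC (limma adjusted p = 0.121) and -0.45 in SHAM (adjusted p = 0.0074). Bhlhe40 was the only gene of the 6 lists whose rhythm itself differed between TAC and SHAM (limma adjusted p = 0.0473).

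Nr1d1 and Nr1d2, the REV-ERB genes whose proteins repress the activators, were rhythmic in each surgery, while Rora and Rorb, which encode activating receptors for the same elements, were not called in either. The ROR amplitudes were 0.058 ± 0.024 in TAC and 0.059 ± 0.024 in SHAM for Rora, and 0.091 ± 0.037 in TAC and 0.021 ± 0.037 in SHAM for Rorb. The peak of Arntl lay 7.31 ± 0.47 h before that of Nr1d1 in TAC and 6.98 ± 0.43 h before it in SHAM. For Clock this distance was 6.98 ± 0.63 h in TAC and 7.01 ± 0.47 h in SHAM, and for Npas2 4.75 ± 0.88 h in TAC and 5.66 ± 0.75 h in SHAM. The peak of Nr1d1 itself differed by -0.98 ± 0.38 h as TAC minus SHAM, and its distance from Arntl differed between the surgeries by less than its SE.

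The output factors Dbp, Tef and Hlf, which activate genes through D-boxes, and Nfil3, which represses them, were all rhythmic in each surgery. As TAC minus SHAM, the fitted peak differed by -1.5 ± 0.4 h (SE) for Dbp and -1.8 ± 0.6 h for Tef. It differed by -1.3 ± 0.7 h for Hlf and -1.7 ± 0.7 h for Nfil3. None of these 4 genes passed the test of a rhythm difference (limma adjusted p = 0.567, 0.607, 0.863 and 0.789). Rhythmic or not, the fitted peak came earlier in TAC for 6 of 7 measured repressors, 4 of 4 output factors and 2 of 4 REV-ERB and ROR genes. It did so for 11 of 16 genes of the activator family list, 5 of 9 reported heart targets and 7 of 18 modifiers and partners. The repressor gene Cry2 and the target gene Dgat2, rhythmic in each surgery, peaked later in TAC by 1.7 ± 1.0 h and 1.0 ± 1.3 h. The share of all genes with an earlier peak in TAC was not counted. Dbp, Tef and Hlf were called lower at ZT23 than at ZT11 in each surgery, and Nfil3 was called higher, by 0.94 in TAC and 0.77 in SHAM. Among genes reported as targets of the activators in heart, 9 of 11 were measured, with 3 rhythmic in TAC and 5 in SHAM, beside 4.35% of all genes in TAC and 5.58% in SHAM. They included Tcap, a Z-disc protein gene (amplitude 0.40 ± 0.07 in TAC and 0.75 ± 0.07 in SHAM), Kcnh2, which encodes a repolarising potassium channel (0.22 ± 0.05 in TAC and 0.20 ± 0.05 in SHAM), and Dgat2, an enzyme of triglyceride synthesis (0.25 ± 0.05 in TAC and 0.21 ± 0.05 in SHAM). Pik3r1, a regulatory subunit of phosphoinositide 3-kinase, was called in SHAM (0.49 ± 0.07) and had 0.25 ± 0.07 in TAC (limma adjusted p = 0.0557). Klf15, a metabolic transcription factor gene, was called in SHAM (0.31 ± 0.07) and had 0.24 ± 0.07 in TAC (limma adjusted p = 0.0972). For Tcap, Pik3r1 and Klf15 the rhythm difference itself did not pass (limma adjusted p = 0.508, 0.789 and 0.961).

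**Figure D4:**
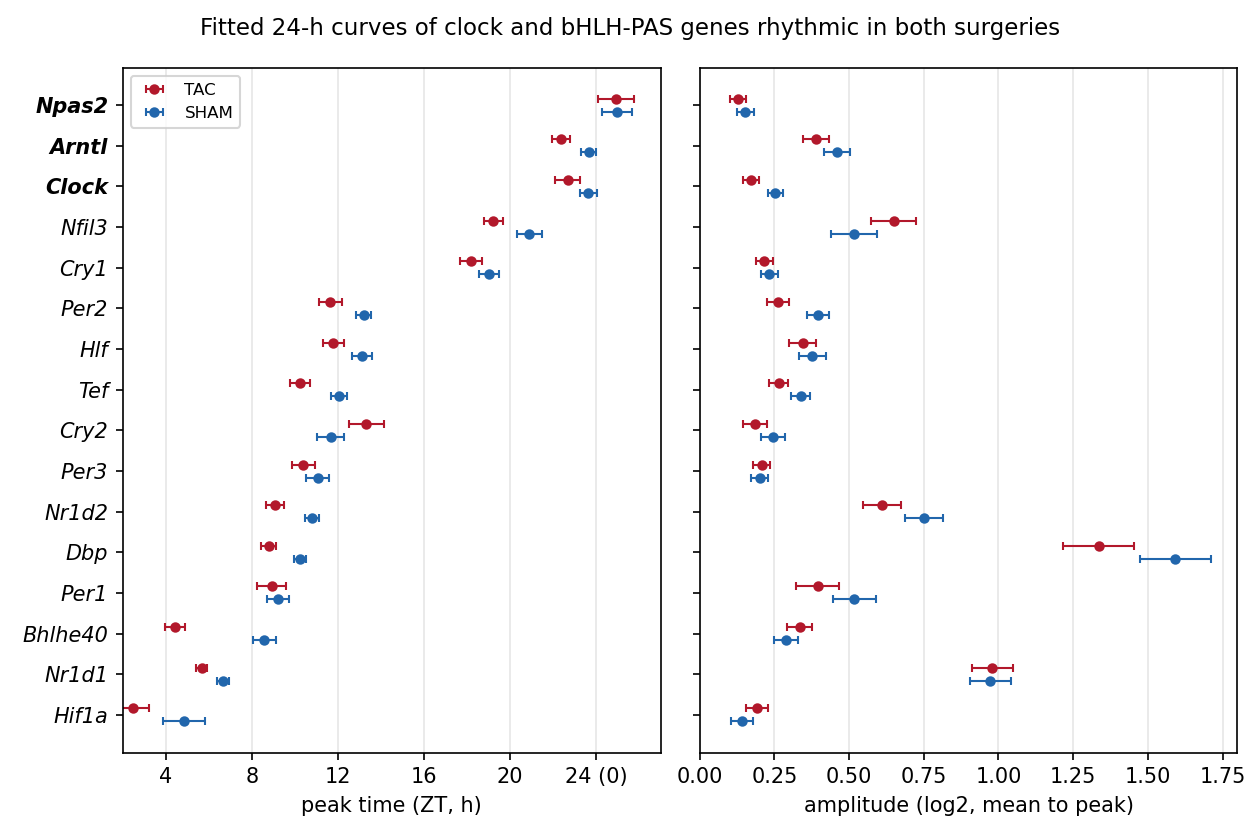
Peak time (ZT, h, left) and amplitude (log2, mean to peak, right) of the 16 genes of the activator, repressor, REV-ERB and output lists that were rhythmic in both surgeries, with TAC above SHAM for each gene and bars of 1 SE. Arntl, Clock and Npas2 (bold) peak between ZT22.4 and ZT0.98, and the peaks of Nr1d1, Dbp and the Per genes lie between ZT5.67 and ZT13.2.

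Other members of the protein family of the activators, which share a basic helix-loop-helix and a PAS domain or act as their coactivators, mostly had small amplitudes. The list held 16 genes with the 3 activators, and 4 were rhythmic in TAC and 6 in SHAM, the 3 activators included, beside 4.35% of all genes in TAC and 5.58% in SHAM. Beyond the activators these were Hif1a, the oxygen-regulated subunit of hypoxia-inducible factor, in each surgery (amplitude 0.19 ± 0.04 in TAC and 0.14 ± 0.04 in SHAM), and in SHAM also Ahr, the dioxin receptor (0.034 ± 0.027 in TAC and 0.10 ± 0.03 in SHAM), and the coactivator gene Ncoa1 (0.090 ± 0.029 in TAC and 0.13 ± 0.03 in SHAM). Arntl2, the paralog of Arntl, had amplitudes of 0.037 ± 0.030 in TAC and 0.023 ± 0.030 in SHAM and did not pass (limma adjusted p = 0.718 and 0.868). Of 23 genes that modify or bind the activator proteins 18 were measured, with 2 rhythmic in TAC (Usp2, a deubiquitinase gene, and Btrc, a ubiquitin ligase subunit gene) and 1 in SHAM (Usp2), where 4.35% of all genes were rhythmic in TAC and 5.58% in SHAM. Counts this near the share of all genes are no result about the list. The kinase genes Csnk1d and Csnk1e, the deacetylase gene Sirt1 and the acetyltransferase gene Crebbp were among those not called.

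By Pearson correlation over all 36 arrays, the genes most like Arntl were Adam19, which encodes a membrane metalloproteinase (0.91), Clock (0.89), Tnfaip1 (0.84), Wsb1 (0.79) and Ckap4 (0.79). Those most opposite to Arntl were Per3 (-0.91), Nr1d2 (-0.91), Tef (-0.89), Tcap (-0.86) and Usp2 (-0.85). For Clock the most alike were Arntl (0.89), Tnfaip1 (0.82), Adam19 (0.81), the endothelial tight junction gene Cldn5 (0.80) and Alg9 (0.80), and the most opposite Tef (-0.92), Nr1d2 (-0.88), Mylip (-0.87), Tspan4 (-0.86) and Adh1 (-0.86). For Npas2 they were Spon2 (0.80), Adam19 (0.79), Rflnb (0.78), the collagen gene Col5a3 (0.77) and Tgfb1i1 (0.77), against Serinc3 (-0.82), the macrophage receptor gene Cd163 (-0.80), Herpud1 (-0.80), Cry2 (-0.79) and Adh1 (-0.78). Adam19 was the only gene of the most alike that appeared for all 3 members. Its amplitude was 0.44 in TAC and 0.62 in SHAM, with peaks at ZT23.1 in TAC and ZT0.25 in SHAM. All these values share their libraries and times of day and describe likeness only.

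Markers of other cell types also moved between ZT11 and ZT23, and fewer cells of a type cannot be told apart from less RNA per cell in whole tissue. In TAC, 1 of 6 atrial markers was higher at ZT23 than at ZT11, with list means on single arrays from -0.95 to -0.29 at ZT23 and from -0.10 to 0.15 at ZT11, and 0 of 5 white adipocyte markers were higher (from -0.71 to 0.58 at ZT23 and from -0.12 to 1.53 at ZT11). In SHAM, 6 of 6 atrial and 2 of 5 adipocyte markers were higher at ZT23. With the atrial and adipocyte means as covariates the TAC amplitude was 0.36 for Arntl (limma adjusted p = 1.14e-05), 0.17 for Clock (0.0014) and 0.12 for Npas2 (0.0732), and the TAC difference of ZT23 and ZT11 was 0.66 for Arntl (0.0246), 0.34 for Clock (0.131) and 0.14 for Npas2 (0.53). All 5 endothelial markers were higher at ZT23 in TAC (list means from -0.0091 to 0.067 at ZT23 and from -0.24 to -0.076 at ZT11) and in SHAM (from 0.038 to 0.12 at ZT23 and from -0.32 to -0.092 at ZT11). All 6 fibroblast markers were higher at ZT23 too, in TAC (list means from 0.43 to 0.76 at ZT23 and from -0.17 to 0.79 at ZT11) and in SHAM (from 0.072 to 0.20 at ZT23 and from -0.15 to -0.020 at ZT11). The part of both cell types in the results was not tested. Of 7 airway markers 4 were higher at ZT23 in TAC and 7 in SHAM. Without the 3 arrays with an airway or thymocyte mean above 1, the ZT23 minus ZT11 difference of Arntl was 0.94 in TAC and 0.93 in SHAM. SHAM ZT23 replicate 3, with an airway mean of 0.82, lay under that cutoff and was kept, so the SHAM value still includes it.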

How the data were processed

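Per the labels' protocols, frozen left ventricles gave Trizol-extracted RNA, from which biotinylated cRNA was hybridised to Affymetrix arrays. The authors deposited 1 log-scale value per probe set and array, taken here as log2. How probes were summarised and normalized, and the log base, is not given in the sources used here. For all 22690 probe sets the median was within 1e-06 of 0 over the arrays of each surgery. Groups and times came from the sample titles.

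Gene symbols of probe sets came from the platform's annotation and were checked by Entrez identifier (20351 of 20380 matched, 0 symbols changed), and averaged per gene (12393 genes). Of the rest, 691 had several symbols, 1606 had none and 13 were controls. Models were fitted with limma 3.58.1 in R 4.3.3 on all 36 arrays, so that both surgeries shared 1 estimate of the spread per gene. The cosine model had, for each surgery, its own mean and 24-h cosine and sine terms. Time courses and the ZT23 minus ZT11 differences came from a model of 12 group means. Benjamini-Hochberg adjustment ran over all genes. Standard errors and 95% intervals of peaks and amplitudes used the delta method with the moderated variance. Comparisons between members used ordinary least squares with their residual covariance. The fits were tested on simulated data. Figures were drawn with matplotlib 3.10.9.

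The members and lists, and the choice of ZT23 and ZT11, were made with earlier results of these data known. Genes named are the members, their lists, and the 5 most and 5 least correlated with each member over 36 arrays, clone-like symbols skipped. Alternatives were quantile normalization, median centring, array weights, robust empirical Bayes, a replicate block, single probe sets, the probe set with the largest SD, a filter on SD, marker covariates, 1 surgery alone, a test of any change over the 6 times, and leaving out arrays. Quantile normalization and median centring of arrays were run on the deposited values, already centred within surgery. The number of arrays limits precision.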

Additional observations from a re-analysis of the deposited data

How the results depend on the processing

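The calls of a 24-h rhythm of Arntl held in TAC and SHAM under all alternatives run, as did that of Clock in SHAM, and no alternative gave a call of a TAC against SHAM difference for any member. The difference that was called for ZT23 minus ZT11 held for Arntl in all 50 alternatives of each surgery, some of which could not change its size. Taken by itself, probe set 1418660_at of Clock ended the call of the TAC rhythm (amplitude 0.11), of the TAC difference of ZT23 and ZT11 (0.23) and of that in SHAM (0.32), and 1421036_at of Npas2 ended that of its TAC rhythm (0.085). With atrial and white adipocyte marker covariates the TAC rhythm of Npas2 (0.12) and the TAC difference of Clock (0.34) were lost, and with the TAC arrays alone the same 2 calls were lost at unchanged values (0.13 and 0.37). The difference of ZT23 and ZT11 of Npas2 passed in TAC without the arrays with thymocyte or airway markers (0.30), and in SHAM after quantile normalization (0.30), with arrays centred on their median (0.25), with array weights (0.23) and with the marker covariates (0.28). Its sign as TAC minus SHAM turned without those arrays for Arntl (0.014) and Npas2 (0.094), and for Npas2 with array weights (0.015). Quantile normalization moved the TAC minus SHAM amplitude to -0.21 for Arntl and -0.13 for Clock, and the ZT23 minus ZT11 difference as TAC minus SHAM to -0.39 and -0.19, against -0.25 and -0.12 with the marker covariates. The cause of these changes was not tested.

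Leaving out single arrays or all arrays of 1 replicate number gave TAC amplitudes of 0.33 to 0.45 for Arntl, 0.15 to 0.20 for Clock and 0.11 to 0.16 for Npas2, and SHAM amplitudes of 0.43 to 0.49, 0.24 to 0.26 and 0.11 to 0.20. The Npas2 rhythm was lost in both surgeries without replicate number 2 or 3 (TAC 0.11 and 0.11, SHAM 0.15 and 0.11), and the TAC difference of Clock without number 3 (0.26), over a range of 0.26 to 0.44. The ZT23 minus ZT11 difference of Npas2 ranged from 0.17 to 0.30 in TAC and from 0.19 to 0.32 in SHAM. In TAC it passed without TAC ZT23 replicate 1 (adjusted p = 0.0184), SHAM ZT03 replicate 1 (0.0472) or number 1 (0.0138). In SHAM it passed without TAC ZT15 replicate 1 (0.0428), TAC ZT23 replicate 1 (0.0246) or 3 (0.044), SHAM ZT03 replicate 1 (0.0219) or 3 (0.0347), SHAM ZT11 replicate 1 (0.0328) or number 1 (0.0105). As TAC minus SHAM it ranged from -0.33 to 0.14 for Arntl, where it turned without TAC ZT23 replicate 1 (0.056) or number 1 (0.14), from -0.21 to -0.0071 for Clock, and from -0.089 to 0.035 for Npas2, where it turned without TAC ZT23 replicate 1 (0.035) or SHAM ZT11 replicate 3 (0.018). The amplitude difference of Arntl ranged from -0.15 to 0.014. All adjusted p-values are from limma. The replicate block, fitted because titles share replicate numbers, kept every call, with limma adjusted p of 3.71e-06, 3.26e-04 and 0.015 for the TAC rhythms. The TAC amplitudes of 0.39, 0.17 and 0.13 could not move, because every group held all replicate numbers and the block could change only the p-values. The numbers were not taken as pairs, since the titles name no pairing. Same-numbered arrays of different groups correlated in their deviations with medians of 0.027, 0.051 and 0.053, above the median of -0.013 for different-numbered arrays. Of the 36 arrays, 23 correlated best with an array of their own number, although most arrays of other groups carried a different number. What arrays of the same number share was not tested.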
